A study of Mus musculus with 2 samples.

Results

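The 10 genes described here are transcription factors with opposed roles in epithelial tissue. Elf3, Ehf and Spdef (ETS family), Grhl1, Grhl2 and Grhl3 (grainyhead family) and Ovol1 and Ovol2 (OVO-like zinc fingers) are epithelial identity factors, and Snai2 and Zeb1 are factors of the epithelial-to-mesenchymal transition (EMT). They were taken by name, as 8 epithelial factors and 2 EMT factors, from the 43346 genes in the deposited tables, and all 10 were found. Their levels played no part in the naming rule, but the list was drawn up with earlier results of these data known.

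The data are total RNA-seq of the mouse stomach at embryonic day 14.5, from strain B6NCrl, with 2 libraries called biological replicates 1 and 2. Per the labels a library stands for the stomach of 1 embryo, and the embryos were collected on different days. The sex field gives male and female pooled, which goes against a single embryo, and the sources used here do not settle it. RNA longer than 200 nucleotides was extracted with mirVana, and 10 ng with synthetic spike-in RNAs went into a Smart-seq protocol. There is 1 group, with no treatment, mutant or second stage, so the study design holds no contrast between conditions. The 2 libraries are compared as replicate 1 over replicate 2, and library and collection day cannot be told apart.

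An epithelium is a sheet of cells held together by E-cadherin, tight junctions and desmosomes. Grainyhead and OVO-like factors keep the genes of these junctions active or the EMT factors silent, while the epithelial ETS factors drive differentiation of surface and secretory cells. Snail and ZEB proteins bind E-box sequences, repress the E-cadherin gene Cdh1 and recruit corepressors, and they are made mainly by mesenchymal, neural crest and migrating cells. The embryonic stomach holds an inner epithelium, stratified toward the esophagus and columnar in the glandular region, around which lie mesenchyme, muscle, nerves and vessels.

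RSEM-style estimated counts on genes summed to 23668322 in replicate 1 and 23882647 in replicate 2, and spike-ins took 12.1% and 14.2% of all TPM, a relative transcript level corrected for length. Of 24 epithelial junction and polarity genes, 24 reached a TPM of 1 in both libraries, as did 15 of 16 mesenchymal structural genes and 10 of 13 genes of mucous secretory cells, among them the gastric trefoil peptide gene Tff1 at 101 ± 1.22 TPM (SD, n = 2). The same threshold was reached by 34.9% of all 43346 genes. Marker genes of the pancreas, an organ beside the stomach, summed to 668 TPM in replicate 1 and 50.2 TPM in replicate 2. The lipase-related gene Pnliprp1 had 186 TPM in replicate 1 and 0.04 TPM in replicate 2.

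The sequences just upstream of these genes are shown first, because all of these families act by binding DNA motifs. RefSeq windows (build GRCm38.p6, the assembly of the deposited mm10 files) ran from 250 bases before to 50 bases after a transcript start. Ehf, Grhl2, Ovol1 and Snai2 had no window, and Zeb1 was left out of the search. The other 5 of the 10 members gave 6 windows in all. Each was searched on both strands for CAGGTG (reverse complement CACCTG), the E-box form bound by Snail and ZEB proteins, for AACCGGTT, the grainyhead site, and for CCGGAAG, an ETS core. The E-box form occurred in 20.2% of all 32851 windows, the ETS core in 8.86% and the grainyhead site in 0.146%. The 6 windows searched hold the E-box letters upstream of Elf3 and around the start of Grhl3, and none of the other searched letters. A match is a description of the sequence, not evidence of binding. The stretches below run 5′ to 3′ on the gene's strand and stop before the first annotated transcript start of each window, with the E-box letters in capitals.
Elf3 (chr1:135258569-135258722, minus strand): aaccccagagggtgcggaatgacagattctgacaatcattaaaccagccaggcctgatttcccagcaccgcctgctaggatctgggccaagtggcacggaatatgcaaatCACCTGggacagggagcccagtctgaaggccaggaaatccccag
Grhl3 (chr4:135573633-135573882, minus strand): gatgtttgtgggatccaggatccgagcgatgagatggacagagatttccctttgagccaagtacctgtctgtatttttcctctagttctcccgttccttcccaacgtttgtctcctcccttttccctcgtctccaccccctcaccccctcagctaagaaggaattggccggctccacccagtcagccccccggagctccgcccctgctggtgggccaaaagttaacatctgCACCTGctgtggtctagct
Counted from the window's RefSeq transcript start, the Elf3 match begins at base -140. Grhl3 has a match at base -19, printed here, and another at base 9 inside the transcript, which is not printed. Grhl1 is shown with 2 windows because its libraries differed in the share of transcripts from each start, as given with the transcripts. The second window lies in an intron of the longer Grhl1 transcript, and neither Grhl1 stretch holds a match.
Grhl1 window 1 (chr12:24572037-24572282, plus strand): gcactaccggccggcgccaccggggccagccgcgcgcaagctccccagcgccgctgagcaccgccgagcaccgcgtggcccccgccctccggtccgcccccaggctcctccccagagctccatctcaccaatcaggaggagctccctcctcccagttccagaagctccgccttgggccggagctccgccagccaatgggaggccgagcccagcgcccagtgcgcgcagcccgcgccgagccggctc
Grhl1 window 2 (chr12:24580469-24580718, plus strand): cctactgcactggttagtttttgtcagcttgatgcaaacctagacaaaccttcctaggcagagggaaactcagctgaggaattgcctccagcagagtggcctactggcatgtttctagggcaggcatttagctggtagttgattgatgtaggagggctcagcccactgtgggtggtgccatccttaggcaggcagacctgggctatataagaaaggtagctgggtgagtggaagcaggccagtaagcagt
Base composition differed widely among the windows. Guanine and cytosine made up 75.3% of the first Grhl1 window, 51.3% of the second, 59.0% of the Elf3 window and 58.3% of the Grhl3 window, beside a median of 52.7% over all windows. The Spdef and Ovol2 windows had none of the searched letters. The Ovol2 window lies at the start of a processed transcript that held 8.85% and 7.90% of the gene's TPM. The top Ovol2 transcript starts 784 bases upstream of the window's start site, and the sequence before it was not searched.

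All 10 factors were detected, meaning at least 1 TPM in both libraries, beside 34.9% of all 43346 genes. The ETS factor Elf3 (ENSMUSG00000003051.9, chromosome 1, 135253575 to 135258568, minus strand, mm10) stood far above the other epithelial factors. It had 79.0 TPM in replicate 1 and 73.0 TPM in replicate 2 (76.0 ± 4.28, SD, n = 2), from 2467 and 2410 counts. Only the EMT factor Snai2 was higher among the 10. Snai2 (ENSMUSG00000022676.6, chromosome 16, 14705852 to 14709385, plus strand) had 115 and 122 TPM (118 ± 4.38, n = 2), from 3758 and 4204 counts. The mean level of Elf3 was above that of 87.2% of the 15137 detected genes, and that of Snai2 above 92.0%. The mean levels of the other 8 members lay between 2.39 and 23.8 TPM.

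**Figure D1:**
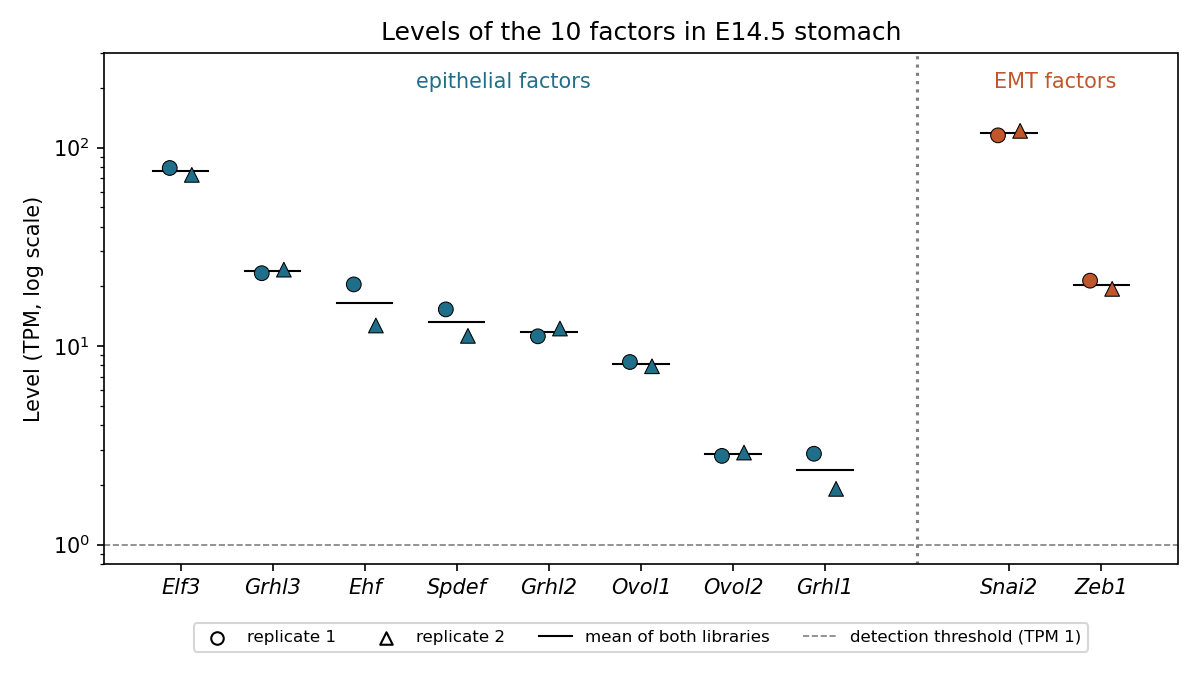
Level of each of the 10 factors in TPM on a log axis, with a circle for replicate 1, a triangle for replicate 2, a bar for the mean and a dashed line at the detection threshold of 1 TPM. Elf3 at 76.0 TPM and Snai2 at 118 TPM stand above the other 8 factors, which average 2.39 to 23.8 TPM.

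Elf3 binds GGAA-type sites and is made in surface and secretory epithelia. Its relative Ehf (ENSMUSG00000012350.11, chromosome 2, 103263433 to 103303278, minus strand), also an epithelial ETS factor, had 20.5 TPM in replicate 1 and 12.7 TPM in replicate 2 (16.6 ± 5.49, n = 2). Spdef (ENSMUSG00000024215.9, chromosome 17, 27714352 to 27728955, minus strand), which drives mucous and goblet cell maturation, had 15.3 and 11.3 TPM (13.3 ± 2.86, n = 2). Both were higher in replicate 1 and varied more between libraries, relative to their level, than Elf3. Elf3 was 3.86 times the level of Ehf in replicate 1 and 5.74 times in replicate 2, and 5.16 and 6.47 times that of Spdef.

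Among the 26 ETS genes examined, Elf3 ranked first, Ehf 11th and Spdef 13th by mean TPM. The next after Elf3 was the broadly expressed Elf2, at 47.7 ± 5.30 TPM, so Elf3 was 1.80 times Elf2 in replicate 1 and 1.42 times in replicate 2. After it came Etv1 (40.6 ± 1.77 TPM), Ets2 (30.9 ± 4.39), Ets1 (30.9 ± 1.17) and Gabpa (29.1 TPM on average). Of the 23 ETS genes that are not members, 19 were detected, beside 34.9% of all genes. The median over all 23 was 11.6 TPM in replicate 1 and 9.95 TPM in replicate 2. The 4 below 1 TPM in a library were Fev (0.93 and 0.07 TPM), Spic (0.23 and 0.19 TPM), Spib (0 and 0.02 TPM) and Etv2. Etv2, a factor of endothelial and blood progenitors, had no read in either library, and a count of 0 allows up to 3. Fev, a neuronal factor, had 16 counts in replicate 1 and 1 count in replicate 2.

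The grainyhead factors spanned a wide range of levels. Grhl3 (ENSMUSG00000037188.7, chromosome 4, 135541888 to 135573630, minus strand), required for skin barrier formation and neural tube closure, led with 23.3 and 24.3 TPM (23.8 ± 0.70, n = 2). Grhl2 (ENSMUSG00000022286.11, chromosome 15, 37233036 to 37363569, plus strand), an activator of Cdh1 and claudin genes, had 11.2 and 12.3 TPM (11.7 ± 0.75, n = 2). Grhl1 (ENSMUSG00000020656.11, chromosome 12, 24572283 to 24617391, plus strand), a regulator of desmosomal cadherins in skin, had 2.87 and 1.91 TPM (2.39 ± 0.679, n = 2) and had the lowest mean of all 10 members, although Ovol2 was lower in replicate 1. The 3 genes did not overlap in level. Grhl3 was 2.08 and 1.98 times Grhl2, and Grhl2 was 3.91 and 6.42 times Grhl1. In the related CP2 branch, Ubp1 had 30.8 ± 1.36 TPM and Tfcp2 12.8 ± 1.02 TPM. The remaining gene of that branch, Tfcp2l1, had 1.12 TPM in replicate 1 and 0.96 TPM in replicate 2.

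The OVO-like repressors were low. Ovol1 (ENSMUSG00000024922.1, chromosome 19, 5549136 to 5560646, minus strand) had 8.32 and 7.92 TPM (8.12 ± 0.283, n = 2), from 393 and 397 counts. Ovol2 (ENSMUSG00000037279.9, chromosome 2, 144305175 to 144332146, minus strand), which represses Zeb1 and holds cells in the epithelial state, had 2.80 and 2.91 TPM from 64 and 71 counts. Ovol1 was 2.97 times Ovol2 in replicate 1 and 2.72 times in replicate 2. The family's other gene, Ovol3, likewise had no read in either library, where a count of 0 allows up to 3.

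Of the EMT factors, Snai2 was 5.40 times Zeb1 in replicate 1 and 6.25 times in replicate 2. Zeb1 (ENSMUSG00000024238.9, chromosome 18, 5591860 to 5775467, plus strand) had 21.4 and 19.4 TPM (20.4 ± 1.37, n = 2), above 57.5% of detected genes. The balance within each family went opposite ways. Snai2, used by neural crest and mesenchymal cells, was 11.8 and 14.2 times Snai1 (9.82 and 8.55 TPM), the snail gene needed at gastrulation. Zeb1 was 0.414 and 0.374 times its relative Zeb2 (51.6 and 52.0 TPM), which also acts in neural crest and enteric nerve development. Snai3 had 9 and 8 counts and was not detected by the 1 TPM threshold.

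**Figure D2:**
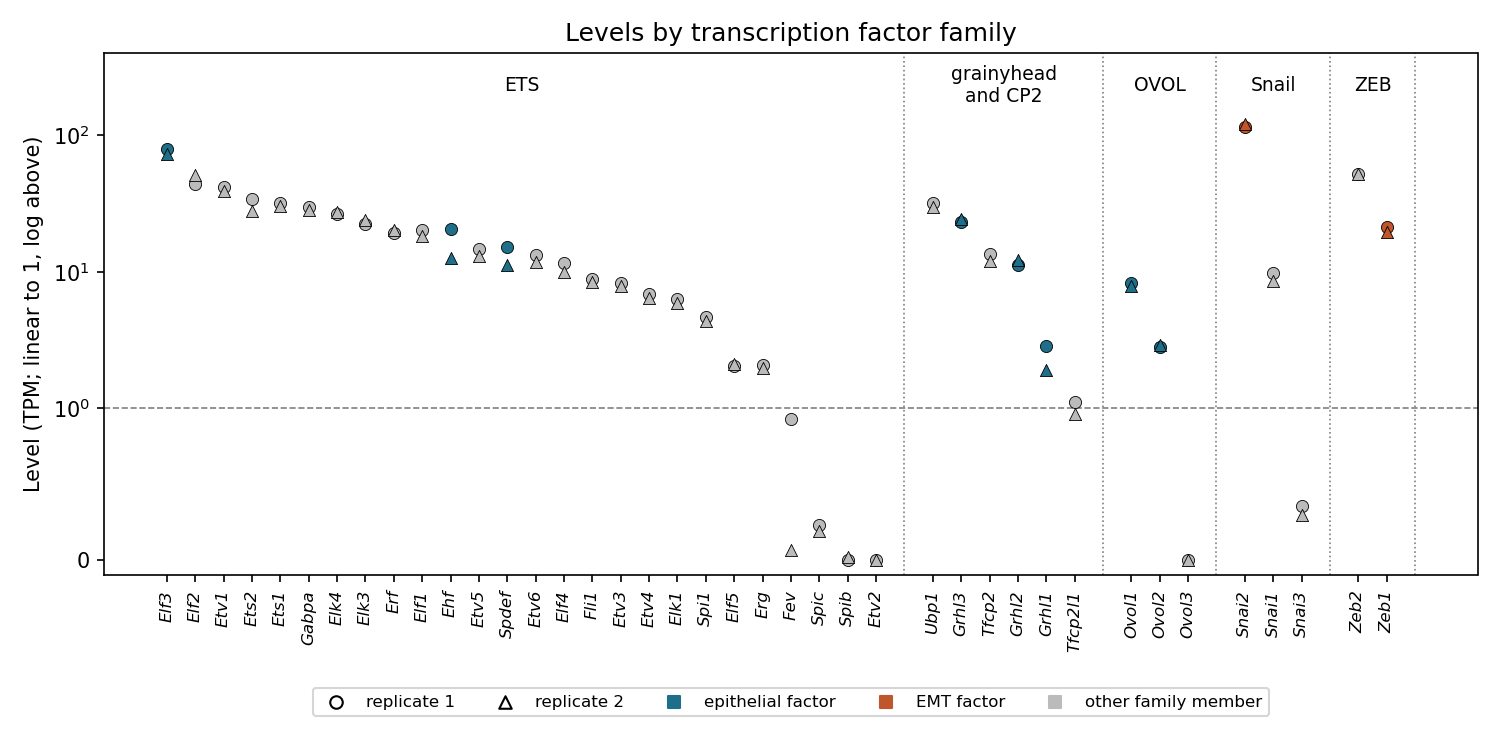
Level in TPM (axis linear to 1 and log above) of the epithelial and EMT factors, in color, and their relatives, in gray, by family, with a circle for replicate 1 and a triangle for replicate 2. Elf3 leads the ETS genes and Snai2 the snail genes, while Zeb1 at 20.4 TPM lies below Zeb2 at 51.8 TPM.

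Other EMT-related factors were of mixed level, with 8 of 12 detected, beside 34.9% of all genes. The E proteins Tcf4 (85.9 ± 2.84 TPM) and Tcf3 (81.8 ± 2.97 TPM), partners of many helix-loop-helix factors in all tissues, were the highest, ahead of Zeb2 and Snai1. The mesenchymal factors Twist2 (9.08 and 7.90 TPM), Twist1 (6.30 and 5.56 TPM) and Prrx1 (6.24 and 5.63 TPM) lay far below Snai2, and Gsc, a homeobox factor of the gastrula organizer, had 1.32 and 1.39 TPM. Klf8 (0.96 and 0.82 TPM), Foxc2 (0.43 and 0.15 TPM) and Snai3 were among those not detected. The median of the 12 was 6.27 TPM in replicate 1 and 5.60 TPM in replicate 2, beside 16.0 and 15.3 TPM over all detected genes.

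Set against each other, the 8 epithelial factors summed to 163 TPM in replicate 1 and 146 TPM in replicate 2, and the 2 EMT factors to 137 and 141 TPM. The epithelial sum was 1.19 times the EMT sum in replicate 1 and 1.04 times in replicate 2 (1.12 ± 0.111, n = 2). Each sum was led by a single gene. Elf3 held 48.4% and 49.9% of the epithelial sum, and Snai2 held 84.4% and 86.2% of the EMT sum. Without Elf3 and Snai2, an alternative added once their shares were known, the 7 remaining epithelial factors were 3.94 and 3.77 times Zeb1. With Snai1, Zeb2, Twist1 and Twist2 added to the EMT side, the direction turned, and the epithelial sum was 0.765 and 0.680 times the EMT sum. The order of the sums thus depended on which EMT factors were counted. In whole tissue, fewer cells of a type and less RNA per cell cannot be told apart, and these libraries do not show which cells held which factor.

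Pair by pair, 2 of the 8 epithelial factors, Elf3 and Grhl3, lay below Snai2 and above Zeb1. All 8 epithelial factors were below Snai2 in both libraries, with Elf3 closest at 0.685 and 0.600 times Snai2 and Grhl3 next at 0.202 and 0.200 times. Against Zeb1, only Elf3 (3.70 and 3.75 times) and Grhl3 (1.09 and 1.25 times) were higher without overlap of the libraries. Ehf overlapped Zeb1, at 0.957 and 0.654 times its level in the same library. The other 5, Spdef, Grhl2, Ovol1, Ovol2 and Grhl1, were lower than Zeb1. Ovol2, the known Zeb1 repressor, was at 0.131 and 0.150 times Zeb1. Of the 16 pairs, 2 were thus higher, 13 lower and 1 overlapping.

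**Figure D3:**
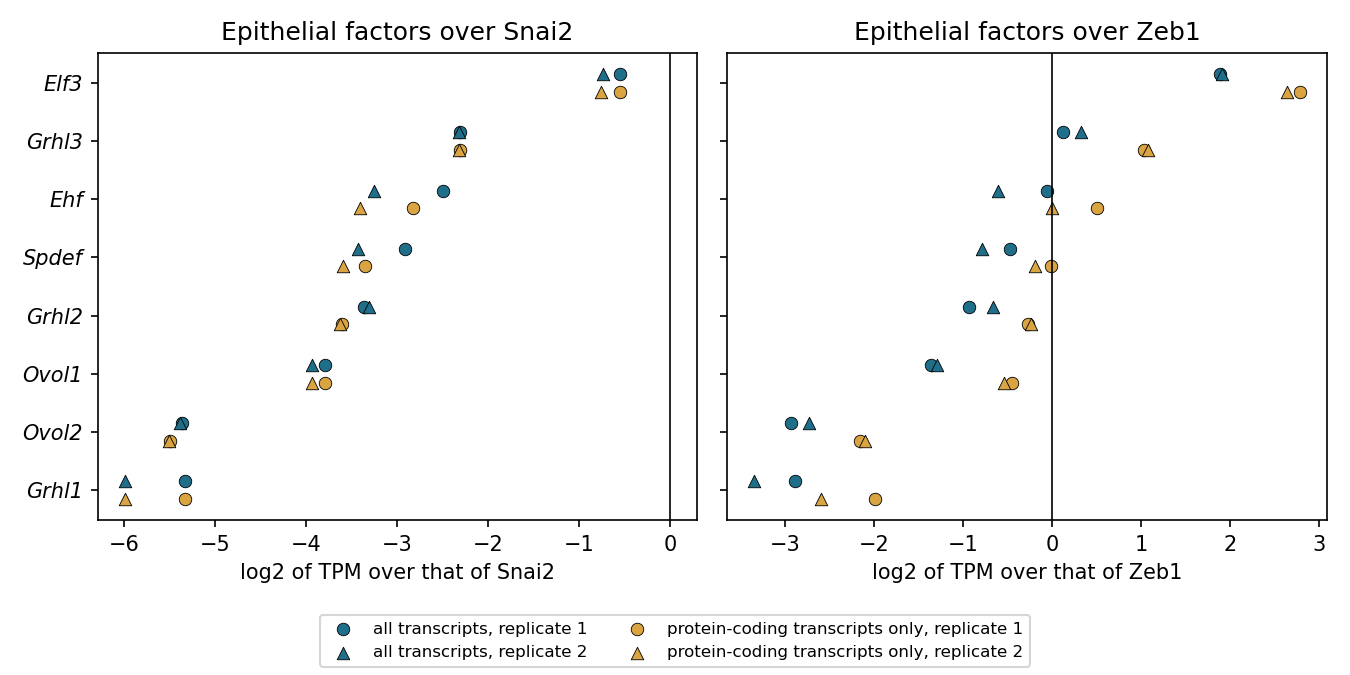
Log2 of the TPM of each epithelial factor over that of Snai2 (left) and Zeb1 (right), for all transcripts and for protein-coding transcripts only, with a circle for replicate 1, a triangle for replicate 2 and a line at equal level. All 8 lie left of the line against Snai2. Against Zeb1, Elf3 and Grhl3 lie right of it, as does protein-coding Ehf in replicate 1.

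From highest to lowest mean level the order was Snai2, Elf3, Grhl3, Zeb1, Ehf, Spdef, Grhl2, Ovol1, Ovol2 and Grhl1. Of the 9 neighbouring pairs in this order, 4 overlapped between libraries and so were not separated by their spread: Zeb1 and Ehf, Ehf and Spdef, Spdef and Grhl2, and Ovol2 and Grhl1. Within a library, Zeb1 was above Ehf and Ehf above Spdef both times, while the order of Spdef and Grhl2 and that of Ovol2 and Grhl1 differed between the libraries. The other 5 steps did not overlap. The widest were the step between Elf3 and Grhl3, 3.19-fold, and that between Ovol1 and Ovol2, 2.84-fold. The narrowest was between Grhl3 and Zeb1, 1.17-fold. No p-value is given, since an exact test over 2 libraries cannot reach the usual threshold, and the libraries' spread is the error shown.

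The levels also rest on which transcripts are counted. Zeb1 had 11 annotated transcripts with an entry, and by GENCODE M21 biotypes only 53.4% and 59.4% of its TPM came from protein-coding ones. Its top transcript, ENSMUST00000025081.7, held 51.1% and 51.4%, and the retained-intron transcript ENSMUST00000160522.1 held 14.3% and 17.1%. Protein-coding Zeb1 was then 11.4 and 11.6 TPM (11.5 ± 0.092, n = 2), close to protein-coding Spdef at 11.3 and 10.1 TPM. On this scale, chosen after seeing the data, the numbers of higher, lower and overlapping pairs did not change, but the mean order of Ehf and Zeb1 turned. Protein-coding Ehf averaged 13.9 ± 3.35 TPM (n = 2), and was 1.42 and 0.995 times protein-coding Zeb1. Elf3 was then 6.87 and 6.20 times Zeb1, and Grhl3 was 2.04 and 2.10 times.

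In Ehf and Spdef, a retained-intron transcript was higher in replicate 1. For Ehf the transcript ENSMUST00000128546.1, a retained intron, had 46.7 counts in replicate 1 and 7.05 counts in replicate 2, or 17.5% and 4.0% of the gene's TPM. For Spdef the retained intron ENSMUST00000127622.1 had 51.0 and 16.2 counts, or 26.2% and 10.6%. Elf3's retained intron ran the other way, with 4.17 and 10.5 counts. Protein-coding levels differed less between libraries: 16.2 and 11.5 TPM for Ehf, and 11.3 and 10.1 TPM for Spdef.

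The top transcript was the same in both libraries for all 10 members, of which Grhl3, Ovol1 and Snai2 have 1 transcript each. Elf3 used ENSMUST00000185752.1 (68.3% and 63.0%) and ENSMUST00000003135.9 (31.0% and 35.2%), which start at 135258438 and 135258568 on the minus strand. Transcripts with their own start and estimated counts in a single library occurred in Grhl1, Ovol2, Zeb1, Grhl2 and Spdef. Zeb1 transcript ENSMUST00000161295.3 had 35.3 and 0 counts, and Grhl2 transcript ENSMUST00000161532.1 had 0 and 10.4 counts. ENSMUST00000085553.7, at the first Grhl1 window printed above, held 100% in replicate 1 and 83.6% in replicate 2, and ENSMUST00000020985.8, at the second window 8436 bases downstream, held 0% and 16.4%. The second transcript had an estimated 0 counts in replicate 1 and 16.7 counts in replicate 2. Its posterior mean shares were 12.1% and 24.6%, so its absence from replicate 1 is not shown. Ovol2's top transcript ENSMUST00000037423.3 held 69.2% and 92.1%, on 47.1 and 69.2 counts. Its other protein-coding transcript ENSMUST00000103171.5 held 21.9% and 0%, on 15.0 and 0 counts. The posterior mean shares of that transcript were 24.5% and 7.60%.

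**Figure D4:**
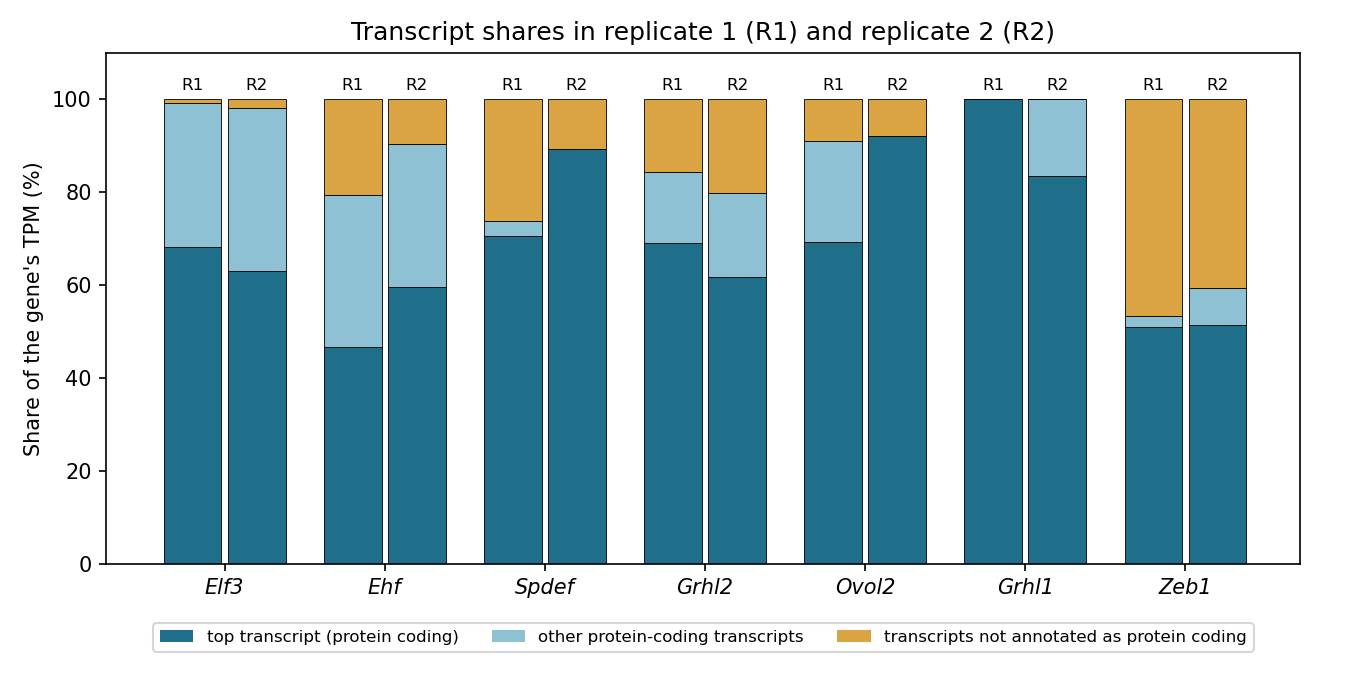
Share of a gene's TPM, in percent, held by its top transcript, other protein-coding transcripts and transcripts not annotated as protein coding, in replicate 1 (R1) and replicate 2 (R2), for the 7 members with several transcripts. Protein-coding transcripts held 53.4% and 59.4% of Zeb1, the smallest share of the 7.

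Between libraries, none of the 9 members with a mean count of at least 100 differed by over 2-fold, beside 0.298% of the 12761 genes with such counts. The log2 ratio of replicate 1 over replicate 2, on TMM-scaled counts with 0.5 added, lay between -0.14 (Snai2) and 0.55 (Grhl1) over the 10. Grhl1 had 163 and 113 counts, a log2 ratio of 0.55 with a 95% counting interval from 0.20 to 0.91. Ehf had 850 and 663 counts, a log2 ratio of 0.38 (0.23 to 0.53), and Spdef 375 and 327 counts, 0.22 (0.00 to 0.44). These 3 were higher in replicate 1. The central 95% of the ratios of all genes with such counts lay between -0.36 and 0.39, so Grhl1 lay outside it and Ehf just inside. Among genes with mean counts of 100 to 300, the central 90% reached from -0.46 to 0.50.

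Elf3 (0.06), Zeb1 (0.07) and Ovol1 (0.01) had ratios whose counting intervals held 0. Snai2 (-0.14, from -0.20 to -0.08), Grhl3 (-0.12), Ovol2 (-0.13) and Grhl2 (-0.10) were lower in replicate 1. Of these, the intervals of Ovol2 (-0.64 to 0.38) and Grhl2 (-0.24 to 0.04) also held 0. Scaling on spike-in counts, which adds 0.27 to every log2 ratio, turned all 4 lower ratios to higher. The counting interval lay off 0 for 5 of the 9 members, Snai2, Grhl3, Ehf, Spdef and Grhl1, beside 34.9% of the 12761 genes. Intervals cover counting error alone, and reads without molecular identifiers are not independent molecules.

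**Figure D5:**
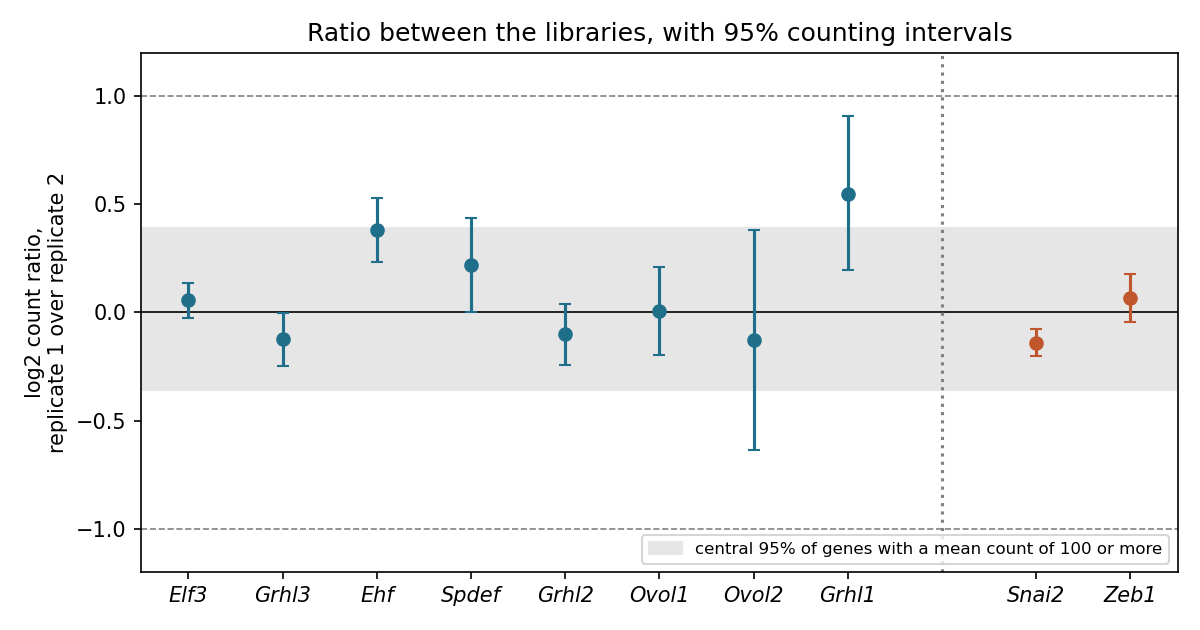
Log2 ratio of replicate 1 over replicate 2 for each of the 10 factors with its 95% counting interval, over a band for the central 95% of all genes with a mean count of at least 100 and dashed lines at 2-fold. Grhl1 at 0.55 lies outside the band of -0.36 to 0.39 and the other 9 lie inside it.

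Marker lists also differed between the libraries. Over all detected genes with a ratio, 7601 were higher and 7296 lower in replicate 1. Junction genes were higher in replicate 1 for 22 of 24 (summed 1634 and 1479 TPM, median log2 ratio 0.09), and stratified epithelium genes for 9 of 10 (751 and 605 TPM, 0.16). Pancreas genes were higher for 9 of 10 (668 and 50.2 TPM, 4.52). The digestive enzyme genes Clps (205 and 39.5 TPM) and Ctrb1 (152 and 0.07 TPM) were among the highest of that list. The acinar factor gene Ptf1a, a defining pancreas marker, had 99 counts in replicate 1 and 0 in replicate 2. Mesenchymal genes were higher for 12 of 16 (6703 and 6196 TPM, 0.07), mesothelial genes for 5 of 5 (median log2 ratio 0.21) and simple keratins for 4 of 4 (0.15). Neural crest and glia genes were higher for 4 of 8 (0.03) and macrophage genes for 3 of 6 (-0.02). The higher marker lists shared their direction with Ehf, Grhl1 and Spdef, and with the smaller ratios of Zeb1 (0.07), Elf3 (0.06) and Ovol1 (0.01). They went against Snai2, Grhl3, Ovol2 and Grhl2, whose direction turned with spike-in scaling. The part of these lists in the members' ratios was not tested.

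Relative to the pan-epithelial surface gene Epcam, Elf3 came to 29.7 and 29.8 TPM per 100 TPM of Epcam. Per 100 TPM of Cdh1 it came to 67.0 and 75.4, and per 100 TPM of the summed junction list to 4.83 and 4.93. Per Epcam, Ehf still differed, at 7.69 and 5.19, as did Grhl1 at 1.08 and 0.780 and Spdef at 5.76 and 4.60. Grhl3 (8.76 and 9.93) and Grhl2 (4.21 and 5.01) ran the other way. Zeb1 came to 8.03 and 7.94, and Snai2 to 43.4 and 49.7. These values set a factor's RNA beside that of single marker genes or a list and do not say which cells held it.

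Genes of the epithelial state that grainyhead and OVO-like factors keep active and EMT factors repress were measured as a list. Of the 24 junction and polarity genes the highest were Spint2 (281 ± 16.3 TPM), a protease inhibitor, Epcam (255 ± 15.2 TPM) and Cldn7 (157 ± 8.51 TPM), a tight junction claudin. The list's median was 42.1 TPM in replicate 1 and 38.2 TPM in replicate 2, where the 8 epithelial factors had medians of 13.3 and 11.8 TPM. The 4 simple keratins ranged up to Krt8 at 607 ± 56.1 TPM, with Krt18 at 331 ± 32.1 and Krt19 at 317 ± 37.2 TPM. All 10 stratified epithelium genes were detected, beside 34.9% of all genes. They were led by Krt15 (171 ± 17.7 TPM), Perp (156 ± 12.5 TPM) and Sfn (120 ± 0.481 TPM).

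Genes of the late skin-type barrier, several of which grainyhead factors activate in epidermis, had 3 of 10 members detected, beside 34.9% of all genes. These were Sprr1a (21.7 ± 3.56 TPM), Tgm1 (14.6 ± 0.382 TPM), a transglutaminase, and Krtdap (15.1 and 6.57 TPM). Of the mucous secretory genes, the highest were Agr2 (167 ± 3.72 TPM), a folding enzyme for mucins, Tff1 and Creb3l1 (25.6 ± 0.445 TPM). The mesenchymal genes were led by Col3a1 (1613 ± 88.4 TPM), Sparc (1236 ± 68.4 TPM) and Col1a1 (900 ± 68.5 TPM). All 9 corepressor genes through which snail and ZEB proteins act were detected, with Ctbp1 at 202 ± 8.18, Hdac2 at 184 ± 5.84 and Hdac1 at 160 ± 0.311 TPM.

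For 6 members the deposited posterior SD of the count was 0 in both libraries, and its highest value over the 10 was 0.91 counts, so few reads were shared with other genes. Whether counting used the strand is not given in the sources used here, so reads of a member and of a gene across from it cannot be told apart. Grhl2 shares 169 exon bases with the antisense gene Gm16136, which had 340 and 328 counts beside 791 and 862 for Grhl2. Zeb1 shares 198 bases with Gm10125 (49.6 and 62.2 counts) and Elf3 shares 162 bases with Gm26642 (17.7 and 20.7 counts), both small beside the members' own counts. Ovol1 shares 690 exon bases with Gm31166 and 76 with AC126029.1 on the other strand. Neither has a deposited count, so their part in the Ovol1 counts cannot be given. Ovol2 shares 359 exon bases with the antisense gene 1700108N11Rik, which had 0 counts in both libraries.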

How the data were processed

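Total RNA-seq of 2 embryonic stomach libraries was quantified by the authors against mm10 and GENCODE M4, per the deposited notes, and the gene and transcript tables they deposited were used. The estimated (expected) counts and TPM values were deposited by the authors per gene and per transcript, with TPM summing over genes and spike-ins together. The percent of a gene's TPM held by each transcript is also the authors' deposited value. Aligner, counter and strand setting: not given in the sources used here. Numbered entries and spike-ins were left out of gene counts and ranks. The members and lists were chosen with earlier results of these data known. All members, the 3 highest genes of each list, the 5 highest and all undetected other ETS genes, and all of the short family lists were to be named, of which some are not reported here. Ptf1a, outside that rule, was chosen after its values were seen. A gene was detected at 1 TPM in both libraries. Log2 ratios used expected counts, as deposited, with 0.5 added and TMM sizes (edgeR 4.0.16, R 4.3.3), and Clopper-Pearson 95% counting intervals. DESeq2 1.42.0 size factors, spike-in scaling, other thresholds and posterior mean TPM were alternatives. The ratio script was tested on simulated data. No p-value was computed, because an exact test over 2 libraries cannot reach the usual threshold. GENCODE M21 gave positions and transcript biotypes.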

Additional observations from a re-analysis of the deposited data

How the results depend on the processing

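The summed epithelial over EMT level had a log2 ratio of 0.15. It turned to -0.47 when Snai1, Zeb2, Twist1 and Twist2 were added, and was 1.95 without Elf3 and Snai2, an alternative chosen after seeing the data. Taking a single library gave 0.05 to 0.26, and posterior mean TPM, counts without length and protein-coding transcripts gave 0.17, 0.20 and 0.17. Rescaling TPM over nuclear genes, without spike-ins and mitochondrial genes, raised the mean level of every member. Elf3 then had 91.2 TPM, Grhl3 28.6 TPM and Snai2 142 TPM. Log2 ratios between libraries reversed with spike-in scaling for Grhl2 (0.17), Grhl3 (0.14), Ovol2 (0.14) and Snai2 (0.13), and for Ovol1 (-0.0034) with DESeq2 size factors. Zeb1 per epithelial marker RNA turned to 0.016 on the log2 scale with Epcam alone. The cause was not tested. All 10 members were detected at 0.5 TPM and 9 at 2 TPM, and none passed 2-fold under any scaling tried. Counts of 64 to 163 limit Ovol2 and Grhl1. No paired analysis was possible because there is no second group whose samples could be paired.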

Other observations

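The TGF-beta pathway induces snail and ZEB genes in many cell types. Of its listed ligand, receptor and SMAD genes, 9 of 9 were detected, beside 34.9% of all genes. Their median was 27.3 TPM in replicate 1 and 27.1 TPM in replicate 2, and their median log2 ratio between libraries was -0.00. The highest were Smad2 (39.4 ± 1.32 TPM), Tgfbr1 (34.7 ± 2.47 TPM) and Tgfbr2 (32.4 ± 0.926 TPM, SD, n = 2).

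Markers of further cell types that make EMT factors were present in both libraries. All 8 neural crest and glia genes, 6 endothelial genes, 6 smooth muscle genes, 5 mesothelial genes and 6 macrophage genes were detected, beside 34.9% of all genes. Their summed levels in replicate 1 and replicate 2 were 229 and 211 TPM for neural crest and glia, 197 and 180 TPM for endothelium, 3835 and 3613 TPM for smooth muscle, 431 and 362 TPM for mesothelium and 183 and 174 TPM for macrophages. The mesothelial list includes Krt19, which is also a simple keratin of the stomach epithelium.

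The highest genes of these lists were Ednrb (90.3 ± 8.61 TPM), the endothelin receptor of enteric neural crest, and Fabp7 (58.3 ± 1.52 TPM) in neural crest and glia. In smooth muscle they were Acta2 (1900 ± 42.4 TPM), Actg2 (1068 ± 75.1 TPM) and Tagln (329 ± 5.61 TPM), all contractile apparatus genes. Endothelial Egfl7 had 87.6 ± 5.85, Pecam1 32.7 ± 2.43 and Cdh5 22.9 ± 2.10 TPM. Besides Krt19, mesothelial Upk3b had 28.4 ± 3.46 and Msln 19.8 ± 4.13 TPM. Macrophage Lyz2 had 56.0 ± 7.95, C1qb 52.3 ± 0.212 and Tyrobp 38.8 ± 4.14 TPM.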
